A study of Mus musculus with 8 samples.

Results

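The genes described here are the 3 chains of complement component C1q (C1qa, C1qb and C1qc) and the anaphylatoxin receptors C3ar1 and C5ar1, 5 of the 23091 genes listed in the tables. They were followed in wells holding at least 1000 transcripts, 1223 of 1536 wells, by library and by whether a well held a transcript of Csf1r, Cx3cr1, Kit or Mrc1. All cells came from wild-type C57BL/6N mouse embryos at E9.5, from the extraembryonic yolk sac (YS), were stained for CD45 and CD11b, and were sorted as single CD45+ cells into 384-well plates. The A1/A2 group is 4 libraries labelled as A1 and A2 cells, and the EMP group is 4 libraries labelled as EMP cells, which per the labels were run alongside but not used in the paper. All 8 libraries share strain, genotype, age, tissue and batch (A), and no well carries a label that tells A1 from A2. The labels do not say whether libraries came from separate litters, so p-values measure at most the spread between these libraries, which may be technical. The 5 genes were chosen on their values in these data, in A1/A2 against EMP libraries and by the 4 marker genes, so those contrasts are descriptions and carry no test.

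C1q is the recognition molecule of the classical complement pathway. Each molecule is built from A, B and C chains in equal number, binds antibody or cell debris, and works through the proteases C1r and C1s. Macrophages and microglia are the main producers of C1q in many tissues. Cleavage of C3 and C5 releases the anaphylatoxins C3a and C5a, and C3ar1 and C5ar1 encode the G protein-coupled receptors that myeloid cells use to sense them. In the yolk sac, erythromyeloid progenitors (EMP) are known to give rise to Kit-positive A1 cells, which become Cx3cr1-positive A2 cells on the way to tissue macrophages. Csf1r encodes the growth factor receptor of that lineage, Kit a receptor of progenitors, Cx3cr1 the fractalkine receptor, and Mrc1 the mannose receptor CD206.

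The 3 chain genes lie next to each other on the chromosome in the RefSeq annotation of GRCm38.p6, in the order C1qb, C1qc, C1qa. RefSeq promoter windows (GRCm38.p6, 250 bases before to 50 after the start of the gene) were matched by symbol for 4 of the 5 genes and are shown because the genes were detected in the same wells. Capitals mark every match, on either strand, to GAGGAA (a PU.1-type ETS core), TGCTGA (a MAF-type core) or TGANTCA (AP-1), and no match overlapped another.
C1qb, chr4:136886151-136886450, minus strand: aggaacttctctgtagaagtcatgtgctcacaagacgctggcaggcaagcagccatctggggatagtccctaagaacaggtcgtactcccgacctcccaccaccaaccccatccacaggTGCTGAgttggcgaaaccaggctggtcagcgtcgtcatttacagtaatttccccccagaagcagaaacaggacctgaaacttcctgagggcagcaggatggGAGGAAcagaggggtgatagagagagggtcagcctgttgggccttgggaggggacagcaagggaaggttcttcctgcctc
C1qc, chr4:136892865-136893164, minus strand: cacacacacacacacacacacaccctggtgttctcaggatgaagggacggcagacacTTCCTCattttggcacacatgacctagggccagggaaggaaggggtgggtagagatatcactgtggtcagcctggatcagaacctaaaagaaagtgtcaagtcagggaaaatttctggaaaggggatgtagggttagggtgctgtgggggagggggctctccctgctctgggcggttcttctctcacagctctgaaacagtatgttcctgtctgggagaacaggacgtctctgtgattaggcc
C3ar1, chr6:122856108-122856407, minus strand: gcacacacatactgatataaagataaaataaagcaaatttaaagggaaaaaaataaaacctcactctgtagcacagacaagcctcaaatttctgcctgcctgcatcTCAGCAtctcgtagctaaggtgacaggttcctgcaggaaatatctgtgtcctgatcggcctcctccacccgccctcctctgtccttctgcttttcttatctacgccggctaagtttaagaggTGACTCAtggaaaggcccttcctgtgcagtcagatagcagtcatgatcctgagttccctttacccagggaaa
C5ar1, chr7:16259289-16259588, minus strand: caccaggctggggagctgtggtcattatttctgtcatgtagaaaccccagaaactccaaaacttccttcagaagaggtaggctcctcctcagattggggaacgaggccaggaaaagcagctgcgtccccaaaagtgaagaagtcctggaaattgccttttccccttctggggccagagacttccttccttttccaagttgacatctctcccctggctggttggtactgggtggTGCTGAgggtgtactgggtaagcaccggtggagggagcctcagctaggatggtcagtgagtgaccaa
C1qb holds GAGGAA 30 bases and TGCTGA 131 bases before the start. C1qc holds only the reverse complement of GAGGAA, and C3ar1 holds TGACTCA 22 bases before the start and the reverse complement of TGCTGA. C5ar1 holds TGCTGA 17 bases before the start. Among 27025 windows of the same length, 28.3% hold GAGGAA, 19.1% hold TGCTGA and 7.93% hold TGANTCA. Matches to GAGGAA and TGCTGA are thus common, and each match is given as a description only.

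Kept wells numbered 127 to 166 per A1/A2 library and 147 to 177 per EMP library, with 2558197 to 3559612 and 3888853 to 5418136 transcripts in all. The median kept well held 6153 transcripts in the A1/A2 group and 20369 in the EMP group. Every library used the same set of well barcodes, so barcodes are shared by design. Summed levels of 4 pan-myeloid genes (Fcer1g, Tyrobp, Laptm5, Coro1a) were 745 to 1120 transcripts per 1000000 (CPM) in A1/A2 and 149 to 252 CPM in EMP libraries, and Ptprc, which encodes CD45, averaged 87.0 and 9.56 CPM. Genes of visceral endoderm, the outer layer of the yolk sac (8 genes such as Apoa1 and Ttr), summed to 8075 to 14370 CPM in A1/A2 and 14150 to 21480 CPM in EMP libraries although cells were sorted on CD45. The endothelial list (6 genes) was at 31.3 to 46.9 and 134 to 312 CPM, the erythroid list (5 genes) at 754 to 7398 and 2298 to 6800 CPM, the mesenchymal list (4 genes) at 48.5 to 255 and 48.1 to 754 CPM, and the lymphoid list (4 genes) at 39.6 to 85.7 and 1.80 to 7.48 CPM. The only listed marker at 0 in a whole group was Cd3e in the EMP libraries. The part of these cells in the values below was not tested, and in library sums fewer cells of a type and fewer transcripts per cell cannot be told apart.

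All 5 genes were higher in every A1/A2 library than in any EMP library. C1qb was the most abundant of them, with 330.5, 226, 282.5 and 312 CPM in A1/A2 libraries 1 to 4. In EMP libraries 1 to 4, C1qb was at 21.9, 10.4, 5.61 and 8.49 CPM. The mean was 288 ± 45.8 CPM in A1/A2 and 11.6 ± 7.16 CPM in EMP libraries (SD, n = 4 each), a ratio of 24.8. Each counted molecule carries its own identifier and only the 3' end is read, so levels need no division by gene length. How well each 3' end was captured and annotated is not known, which limits any comparison between genes.

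C1qc, the C chain, was at 132, 91.8, 116.5 and 88.7 CPM in A1/A2 libraries 1 to 4, and at 9.83, 4.25, 1.68 and 3.09 CPM in the EMP libraries. Its group means were 107 ± 20.5 and 4.71 ± 3.57 CPM (SD, n = 4 each), 22.8 times apart. C1qa, the A chain, was the rarest chain, with 29.0, 9.56, 20.4 and 24.7 CPM in the A1/A2 libraries. The EMP libraries held 3, 1, 0 and 0 C1qa transcripts, 4 in all against 249 in the A1/A2 libraries, and no fold is given. A count of 0 allows up to 0.561 CPM in EMP library 3 and 0.771 CPM in EMP library 4, counting error only. Among the A1/A2 libraries, C1qa was lowest in library 2, and its spread relative to the mean was wider than that of C1qb or C1qc.

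C3ar1, the C3a receptor, was at 52.0, 42.2, 47.7 and 38.3 CPM in A1/A2 libraries 1 to 4 and at 3.68, 1.85, 2.06 and 0.772 CPM in the EMP libraries. The means were 45.1 ± 6.03 and 2.09 ± 1.20 CPM (SD, n = 4 each), a ratio of 21.6. C5ar1, the C5a receptor, was at 18.4, 12.4, 17.1 and 11.6 CPM in the A1/A2 libraries and 2.66, 0.185, 0.748 and 1.29 CPM in the EMP libraries. Its means were 14.9 ± 3.37 and 1.22 ± 1.06 CPM (SD, n = 4 each), a ratio of 12.2. In both groups the order of the means was C1qb, C1qc, C3ar1 among the most abundant, and in the A1/A2 libraries C1qa (20.9 ± 8.33 CPM) and C5ar1 overlapped. Of 11144 genes tested, 17.9% had their lowest A1/A2 library above their highest EMP library, and 32.8% passed edgeR at an adjusted p under 0.05 in either direction, 17.3% as higher. All 5 genes had groups that did not overlap, but they were chosen on this contrast and nothing is read from that count.

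**Figure D1:**
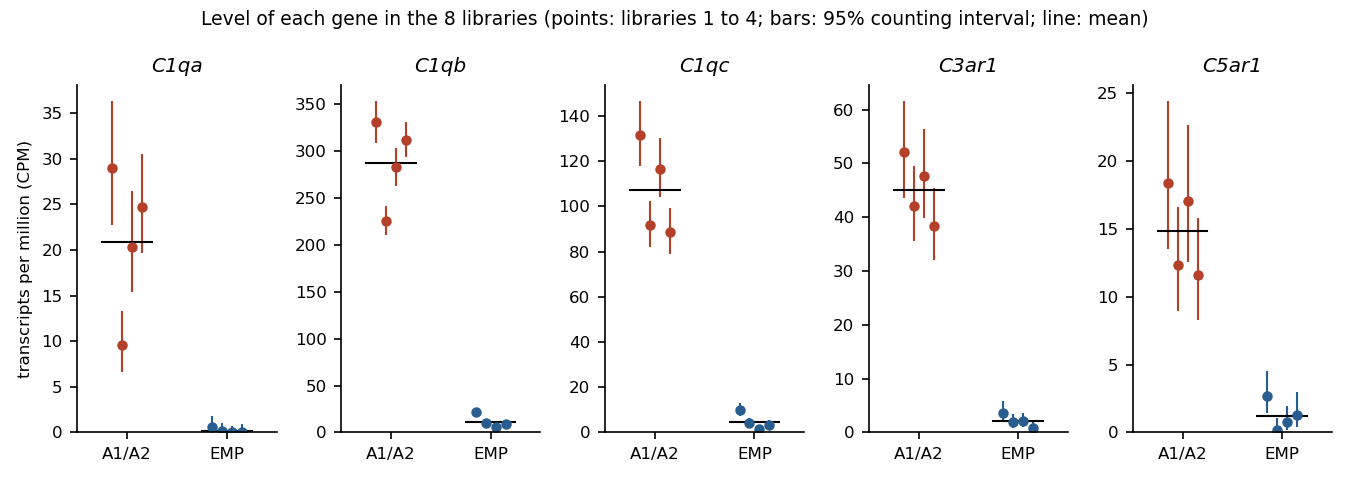
Level of each gene in transcripts per 1000000 (CPM, linear axis from 0) in the 4 A1/A2 and 4 EMP libraries. Points are libraries 1 to 4 from left to right, bars the 95% Poisson counting interval and black lines the group mean. C1qb ranges from 226 to 330.5 CPM in the A1/A2 libraries and from 5.61 to 21.9 CPM in the EMP libraries.

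The share of wells holding a transcript followed the same order. In A1/A2 libraries C1qb was found in 63.4% ± 7.45 of wells, C1qc in 32.8% ± 1.97, C3ar1 in 21.5% ± 1.26, C1qa in 12.8% ± 2.66 and C5ar1 in 12.3% ± 2.36 (SD, n = 4 libraries). In EMP libraries, whose wells were deeper, the shares were 17.4% ± 3.05 for C1qb, 6.08% ± 1.84 for C1qc, 4.37% ± 1.73 for C3ar1, 2.64% ± 1.54 for C5ar1 and 0.435% ± 0.561 for C1qa (SD, n = 4 libraries). After each well was thinned to 1000 transcripts, which left out no kept well, C1qb was found in 23.3% ± 5.76 of A1/A2 and 2.88% ± 0.385 of EMP wells (SD, n = 4 libraries). The other thinned shares in A1/A2 wells were 6.58% for C1qc, 2.82% for C3ar1, 2.19% for C1qa and 1.07% for C5ar1, near the level of a single transcript per well.

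C1q transcripts were concentrated in few wells. In the A1/A2 libraries, 28 of 568 wells held 50% of the summed chains, and the 20 wells with most held 41.0%. The highest well held 160 C1qb, 52 C1qc, 16 C1qa, 21 C3ar1 and 12 C5ar1 transcripts among 133880 in all. It also held 356 transcripts of the endoderm gene Apoa1, which ranged from 0 to 356 in the 20 wells with most C1q. For the receptors, 21 wells held 50% of C3ar1 and 12 wells 50% of C5ar1. Wells with at least 10 C1q transcripts numbered 24, 23, 20 and 29 in A1/A2 libraries 1 to 4, 96 in all, and held 84.5% of the chains. Of these 96 wells, 95 held Csf1r, 86 Cx3cr1, 66 Mrc1, 22 Kit, 74 C3ar1 and 44 C5ar1 transcripts. Their median total was 50090 transcripts, far above that of all kept A1/A2 wells, so depth moved with these counts and its part was not tested.

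**Figure D2:**
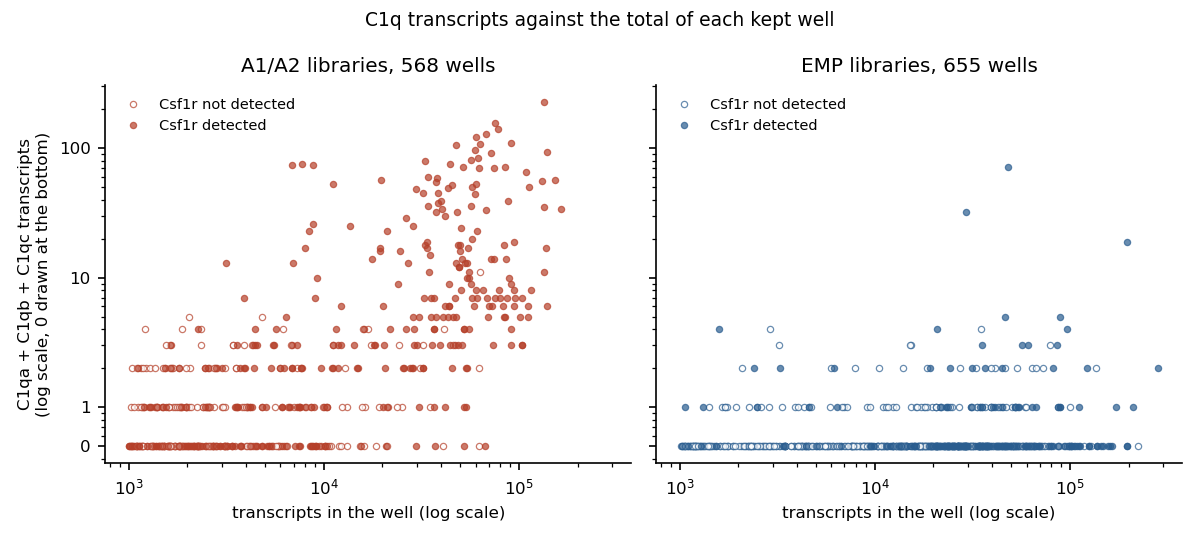
Summed C1qa, C1qb and C1qc transcripts of each kept well (vertical log axis, wells with 0 drawn at the bottom) against the total transcripts of the well (horizontal log axis), for A1/A2 and EMP libraries. Filled points are wells with a Csf1r transcript. Wells with at least 10 C1q transcripts number 96 in the A1/A2 libraries, 95 of them filled, and 3 in the EMP libraries.

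The chains were found together in a nested way. All 72 A1/A2 wells with C1qa also held C1qb, and 61 of them held C1qc too. C1qb alone was found in 185 wells, C1qb with C1qc in 105, C1qc alone in 21 and C1qa with C1qb but without C1qc in 11. The receptors followed the number of chains: C3ar1 was found in 11 of 185 wells (5.95%) with no chain, 20 of 206 (9.71%) with 1 chain, 40 of 116 (34.5%) with 2 and 51 of 61 (83.6%) with all 3. C5ar1 was found in 2.16%, 5.83%, 18.1% and 52.5% of these wells. The median total of the wells rose along the same classes, from 2335 to 4689, 35215 and 47679 transcripts. Of 122 wells with C3ar1, 91.0% held C1qb and 39.3% held C5ar1, and of 69 wells with C5ar1, 94.2% held C1qb and 69.6% held C3ar1.

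A1/A2 wells with a Csf1r transcript held most of all transcripts, and most of those of each of the 5 genes. The shares that follow are thus not a measure of enrichment, for which the levels are given. In the A1/A2 libraries, 327 wells with Csf1r held 99.2% of C1qa, 94.7% of C1qb, 97.8% of C1qc, 97.1% of C3ar1 and 96.1% of C5ar1, and 241 wells without it held the rest. C1qb was at 363, 252, 303 and 312 CPM in wells with Csf1r of libraries 1 to 4, and at 144, 63.1, 123 and 306 CPM in wells without it. Library 4 stood apart here, since its wells without Csf1r held C1qb at nearly the level of those with it. C1qc was at 153, 105, 128.5 and 89.9 CPM with Csf1r and at 7.99, 10.2, 22.6 and 70.2 CPM without it, and these classes did not overlap. C3ar1 averaged 49.6 ± 8.33 CPM with and 12.6 ± 4.95 CPM without Csf1r, and C5ar1 16.2 ± 4.36 and 5.36 ± 4.12 CPM (SD, n = 4 libraries). All 5 genes were higher with Csf1r in 4 of 4 A1/A2 libraries. The median total was 21883 transcripts with and 2357 without Csf1r, and after thinning to 1000 transcripts the share of wells with C1qb was 24.4% ± 4.92 with and 21.9% ± 7.84 without Csf1r (SD, n = 4 libraries).

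Cx3cr1 marked A1/A2 wells with an even C1qb level across libraries. C1qb was at 357, 333, 355.5 and 366 CPM in the 196 wells with Cx3cr1 of A1/A2 libraries 1 to 4, and at 249, 60.1, 171.5 and 165 CPM in the 372 wells without it. The classes did not overlap, and the spread among libraries was 14.0 CPM (SD) with Cx3cr1 against 77.5 CPM without it. C1qc averaged 142 ± 22.8 CPM with and 38.2 ± 18.8 CPM without Cx3cr1, C3ar1 59.7 ± 8.01 and 14.3 ± 5.88 CPM, and C5ar1 19.2 ± 4.32 and 5.66 ± 3.37 CPM (SD, n = 4 libraries). C1qa was at 30.5, 15.7, 29.5 and 31.4 CPM with Cx3cr1 and 24.1, 0, 6.41 and 6.49 CPM without it. Of the 15 C1qa transcripts without Cx3cr1 in library 1, 12 came from a single well, and 59 transcripts of that library were in wells with Cx3cr1. Median totals were 38171 and 3184 transcripts. After thinning, C1qb was found in 29.05% ± 5.17 of wells with and 20.3% ± 5.725 without Cx3cr1 (SD, n = 4 libraries).

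A1/A2 wells with Mrc1 had the highest mean level of each of the 5 genes among wells with any of the 4 markers. C1qb was at 459, 360, 371 and 375 CPM in the 171 A1/A2 wells with Mrc1 of libraries 1 to 4 and at 212, 97.0, 173 and 202 CPM in the 397 wells without it. C5ar1 was at 34.3, 20.1, 25.03 and 15.9 CPM with Mrc1 and at 3.75, 4.96, 7.30 and 4.001 CPM without it, classes that did not overlap. C3ar1 averaged 65.8 ± 10.4 CPM with and 21.0 ± 6.49 CPM without Mrc1, and C1qc 163 ± 37.9 and 45.5 ± 16.6 CPM (SD, n = 4 libraries). Among the 196 wells with Cx3cr1, the 101 that also held Mrc1 had C1qb at 452 ± 18.3 CPM and C5ar1 at 27.6 ± 8.05 CPM, and the 95 without Mrc1 had 172 ± 42.6 and 4.18 ± 1.98 CPM (SD, n = 4 libraries). C1qa was at 37.2 ± 7.77 and 6.78 ± 7.23 CPM in these wells. Their median totals were 50857 and 25159 transcripts, closer to each other than in the splits by Csf1r or Cx3cr1. All A1/A2 wells with and without Mrc1 were further apart in depth, with median totals of 33646 and 4033 transcripts. After thinning, C1qb was found in 27.55% ± 4.14 of wells with and 21.4% ± 7.16 without Mrc1 (SD, n = 4 libraries). Since the 5 genes were chosen on these splits, no test is given.

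Kit gave no common direction in the A1/A2 libraries. C1qb was at 178, 334, 109 and 278 CPM in the 73 wells with Kit of A1/A2 libraries 1 to 4 and at 388, 191, 358 and 326 CPM in the 495 wells without it, so it was higher with Kit in library 2 and lower in the other libraries. The same library alone was higher with Kit for C1qa, C1qc and C5ar1, and libraries 1 and 2 were for C3ar1. The median total was 46151 transcripts with and 4574 without Kit. After thinning, C1qb was found in 16.8% ± 14.6 of wells with and 24.1% ± 5.33 without Kit (SD, n = 4 libraries). Of the wells with Kit, 43 also held Cx3cr1, with C1qb at 266 ± 188 CPM, and 30 did not, with C1qb at 119 ± 58.8 CPM (SD, n = 4 libraries). In these 30 wells, with a median total of 12931 transcripts, 1 C1qa, 7 C3ar1 and 2 C5ar1 transcripts were counted. The 153 wells with Cx3cr1 and without Kit held C1qb at 396 ± 87.0 CPM and C3ar1 at 65.8 ± 15.7 CPM (SD, n = 4 libraries). In EMP libraries 1 to 4, C1qb was at 8.74, 5.715, 4.94 and 5.34 CPM with Kit. Without Kit it was at 38.8, 14.2, 6.81 and 15.0 CPM, higher in each. C1qb was higher with Csf1r in 3, with Cx3cr1 in 1 and with Mrc1 in 4 EMP libraries. The 163 EMP wells with Csf1r held 59.35% of C1qb. They were deeper, with a median total of 36726 transcripts against 14563 in the 492 without it, so this share is not a measure of enrichment.

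**Figure D3:**
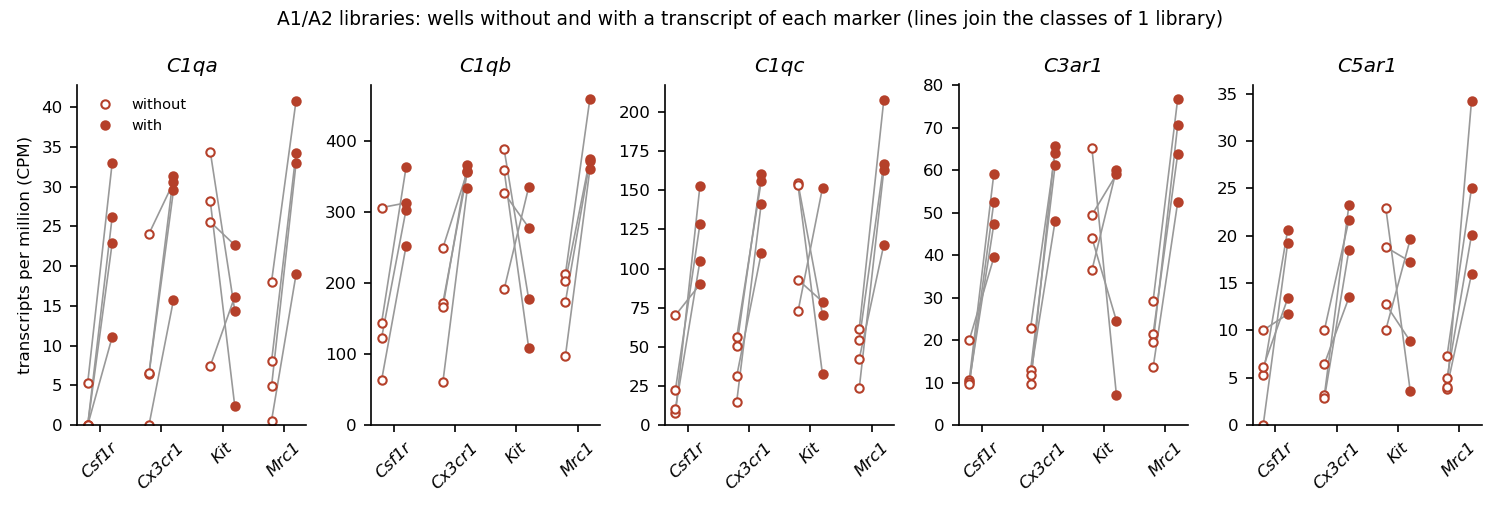
Level of each gene (CPM, linear axis from 0) in wells without (open points) and with (filled points) a transcript of Csf1r, Cx3cr1, Kit or Mrc1, in the 4 A1/A2 libraries. Lines join both classes of a library and rise in all 4 libraries for Csf1r, Cx3cr1 and Mrc1, while for C1qb and Kit they rise in library 2 only.

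The ratio of C1qc to C1qb was alike in 3 of the 4 A1/A2 libraries and was lower in wells without Csf1r in all 4. In wells with Csf1r, 42.2, 41.7, 42.4 and 28.8 C1qc transcripts were counted per 100 C1qb in libraries 1 to 4. Library 4 was lowest, and its 95% counting interval (25.2 to 32.8) did not overlap that of any other library (the lowest bound of the others was 36.5). C1qa was counted at 9.11, 4.404, 7.58 and 8.39 per 100 C1qb in the same wells, with library 2 lowest. In wells without Csf1r, C1qc stood at 5.56, 16.1, 18.4 and 22.9 per 100 C1qb, and C1qa was found in library 1 only (2 transcripts). For library 4 the interval without Csf1r (11.9 to 41.5) covered the ratio with it. Summed over libraries, that was 29 C1qc and 2 C1qa against 184 C1qb, or 15.8 C1qc per 100 (95% counting interval 10.3 to 23.4), against 38.0 (35.6 to 40.6) in wells with Csf1r. Intervals cover counting error only.

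**Figure D4:**
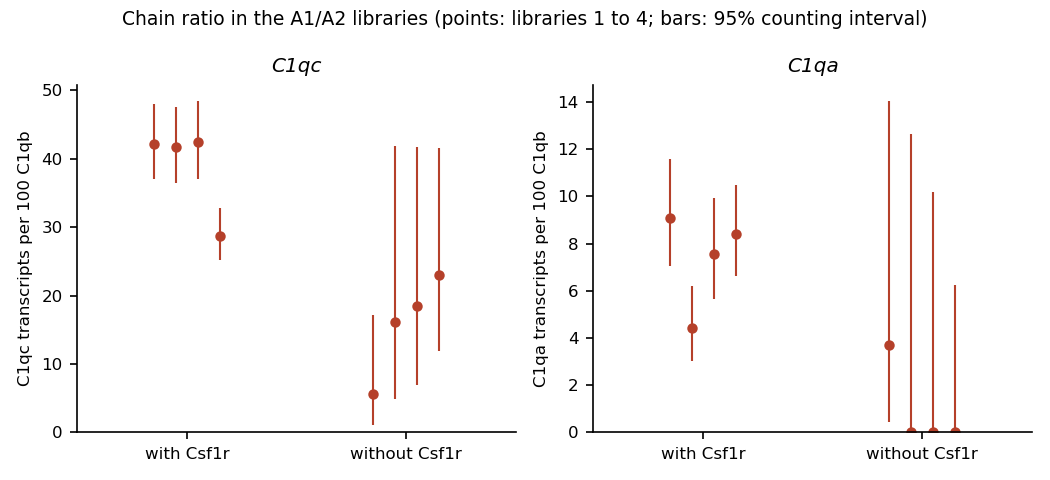
C1qc (left) and C1qa (right) transcripts per 100 C1qb transcripts in kept wells with and without Csf1r of A1/A2 libraries 1 to 4 (points from left to right, linear axes from 0, bars 95% exact binomial counting intervals turned into ratios). C1qc ranges from 28.8 to 42.4 per 100 C1qb with Csf1r and from 5.56 to 22.9 without it.

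C1qb was also counted in wells classed as endoderm, which bears on how its shares are read. Wells with at least 10 endoderm transcripts per 1000 that were not myeloid (below 2 pan-myeloid transcripts per 1000) numbered 233 in the A1/A2 libraries. C1qb was found in 58.8% of them at a median of 4848 transcripts, and in 68.6% of the 51 remaining myeloid wells (myeloid wells below the Ly6c2/Ccr2 and S100a8/S100a9 thresholds given below) at a median of 7730. In levels they were further apart, at 155 CPM (95% counting interval 145 to 165) and 406 CPM (366 to 448). C1qc was found in 21.0% of endoderm and 45.1% of these myeloid wells, at 38.0 and 199.5 CPM, C3ar1 in 14.6% and 31.4%, at 19.0 and 59.2 CPM, and C5ar1 in 7.73% and 15.7%, at 5.86 and 15.1 CPM. Thinned to 1000 transcripts, C1qc was found in 1.29% of the endoderm and 13.7% of the myeloid wells, and C1qb in 18.9% and 27.5%. The share of wells with C1qb is thus not far above that in endoderm wells and is not read as a share of expressing cells. The classes depend on the myeloid threshold. At the original one, remaining myeloid wells of library 4 held at most 15 C1qb transcripts. The well with 160, in that library, lay outside the class. At 0.5 per 1000, added after the values were seen, 159 endoderm wells held C1qb at 83.6 CPM in 58.5% of wells. C1qc was at 10.7, C3ar1 at 5.76 and C5ar1 at 2.36 CPM in these wells. They held 2 C1qa transcripts, against 41 in the endoderm wells of the original threshold. With the added threshold, 285 remaining myeloid wells held C1qb at 386 CPM. At the original threshold, 271 further A1/A2 wells belonged to no class and held 2101 of the 3502 C1qb transcripts. In the EMP libraries, 349 wells fell in the endoderm class at this threshold, with a median of 28586 transcripts. They held C1qb at 7.12 CPM in 17.8% of wells and C1qc at 1.76 CPM. The source of the difference between endoderm wells of both groups was not tested.

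In the EMP libraries, 3 wells held at least 10 C1q transcripts, and these 3 held 38.3% of the chains counted there. The highest, in library 1, held 46 C1qb, 24 C1qc, 2 C1qa, 10 C3ar1 and 7 C5ar1 transcripts with 16 of Csf1r and 26 of Mrc1 among 48401. The next, in library 2, held 22 C1qb and 10 C1qc with 18 of Csf1r and 10 of Cx3cr1 among 29467. The third, in library 1, held 15 C1qb and 4 C1qc with 1 of Csf1r, 17 of Mrc1 and 791 of Apoa1 among 196492. Apoa1 was counted 45 times in the highest well and 41 times in the next. None of these 3 wells held Kit. Elsewhere C1qb came mostly as single transcripts, 84 of the 114 EMP wells with C1qb holding 1. Its level fell with the depth of the well, from 103 CPM in wells of 1000 to 2000 transcripts (9 C1qb transcripts) to 73.6 (21 transcripts), 13.8 and 9.80 CPM in wells from 2000, 5000 and 20000 transcripts up. In the A1/A2 libraries, the same classes of depth held C1qb at 368, 278, 355 and 275 CPM. EMP wells sharing their barcode with an A1/A2 well of the same library number that held at least 10 C1q transcripts had C1qb in 28 of 88 (31.8%), and the other EMP wells in 86 of 567 (15.2%), higher in 4 of 4 libraries. Whether transcripts passed between libraries was not tested.

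Splits of the myeloid wells by other genes were not used to choose the 5 genes and were tested. Some wells held at least 0.5 transcripts of Ly6c2 and Ccr2, genes of monocytes, per 1000. In A1/A2 libraries 1 and 3 they held more C1qb and C1qc than the remaining myeloid wells. In the A1/A2 libraries 1 and 3, which alone had 3 or more wells in both classes, C1qb was at 2916 and 1496 CPM in the Ly6c2/Ccr2 wells and at 740 and 369 CPM in the remaining ones. The log2 fold change was 2.19 ± 0.27 (SE; edgeR, adjusted p = 2.41e-13) for C1qb and 1.51 ± 0.38 (edgeR, adjusted p = 0.00102) for C1qc. This fit held 4 sums from 2 libraries, so its p-values say little about the spread between libraries. In library 1, a single Ly6c2/Ccr2 well held 46 of the 53 C1qb transcripts of the class. The call of C1qc ended with no filter on low counts (0.97, edgeR adjusted p = 0.786) and with a Ly6c2/Ccr2 threshold of 1 per 1000 (1.08, adjusted p = 0.0718). C3ar1 did not pass, at 1.84 ± 0.77 (SE, edgeR, adjusted p = 0.082). Of 2007 genes tested, 18.3% passed in either direction and 11.3% were higher. The result rests on few wells: of 11 Ly6c2/Ccr2 wells in all 4 libraries, 4 held 46, 35, 19 and 17 C1qb transcripts and the other wells 0 to 6. In library 2, where 2 wells fell in the class, C1qb was at 104.5 CPM against 420.5 CPM in the remaining myeloid wells, the opposite order. In library 4, the only well of the class held 0 C1qb transcripts, against 225 CPM in the remaining ones. The 51 remaining myeloid wells held 377 of the 3502 C1qb transcripts, so most C1qb of the A1/A2 libraries lay outside this comparison.

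With looser thresholds, added after the values were seen (0.5 pan-myeloid and 0.2 Ly6c2/Ccr2 transcripts per 1000), libraries 1, 2 and 3 could be used, with 3, 5 and 6 Ly6c2/Ccr2 wells. C1qb was then higher by 1.46 ± 0.37 (SE, log2 scale; edgeR, adjusted p = 0.00214), C1qc by 1.38 ± 0.45 (adjusted p = 0.0313) and C1qa by 2.40 ± 0.69 (adjusted p = 0.0105), while C3ar1 was at 0.94 ± 0.68 (adjusted p = 0.43). Leaving out library 1 ended all 3 calls (edgeR adjusted p = 0.671 for C1qb, 0.606 for C1qc and 0.952 for C1qa), and leaving out library 3 ended those of C1qb (0.875) and C1qc (0.427). Thinning the wells to 1000 transcripts ended the call of C1qb (1.09, edgeR adjusted p = 0.203). DESeq2 called none of the 3 with the looser thresholds (adjusted p = 0.18, 0.151 and 0.112 for C1qb, C1qc and C1qa), and with the original ones it called C1qb (1.05e-05) and not C1qc (0.0944). C5ar1 was at 0 in all 11 Ly6c2/Ccr2 wells of the original thresholds (0 of 79484 transcripts, which allows up to 37.7 CPM) against 14 transcripts, or 15.1 CPM, in the 51 remaining wells, so no difference was detectable at this depth. None of the 11 wells held Mrc1 and 1 held Cx3cr1, in contrast to the wells with most C1q overall.

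Wells with S100a8 and S100a9, calprotectin genes of neutrophils and some monocytes, numbered 2 at the threshold of 5 per 1000, too few for a test. At the looser threshold of 1 per 1000, 15 wells in libraries 2, 3 and 4 were compared with the remaining myeloid wells. C5ar1 was at 132, 184.5 and 66.1 CPM in these wells and at 20.9, 23.7 and 16.3 CPM in the remaining ones, a log2 fold change of 2.43 ± 0.86 (SE) that did not pass with edgeR (adjusted p = 0.0679). It passed with DESeq2 (2.72 ± 0.79 SE, adjusted p = 0.0118). The value rests on 8 transcripts in 5 wells. C1qb was at 132, 184.5 and 397 CPM in these wells against 402, 372 and 394 CPM, with a log2 fold change of -1.07 ± 0.48 (SE, edgeR, adjusted p = 0.206). C1qa, C1qc and C3ar1 did not pass either, and 6.49% of 7400 genes did.

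No change of C1qb or C1qc with G2/M genes was detected in the main fit at the original thresholds. Remaining myeloid wells were split at their library's median of summed G2/M genes (such as Mki67 and Top2a). Each sum held 4 to 8 wells, and the high class held more transcripts in each library (201466 against 30306 in library 2). The part of depth was not tested. Of 2026 genes, 1.78% passed, all as lower in the high class. Both classes did not differ detectably in C1qb (log2 fold change -0.05 ± 0.33 SE, edgeR, adjusted p = 0.993) or C1qc (-0.56 ± 0.45 SE, edgeR, adjusted p = 0.803). The direction for both genes turned with looser thresholds (0.46 and 0.55, adjusted p = 0.909 and 0.92), and C1qc passed as lower among wells of at least 2000 transcripts (-1.35 ± 0.28 SE; edgeR, adjusted p = 0.0239). C1qa, C3ar1 and C5ar1 were too rare to be tested with the original thresholds and did not pass with the looser ones.

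Among 64 myeloid A1/A2 wells, the genes most like the summed C1q chains in log2 level were Maf (Pearson r = 0.673), Fabp5 (0.562), Aif1 (0.562), N6amt1 (0.544), Adgre1 (0.532), Cenpb (0.531), Stag1 (0.522) and Cd93 (0.52), of 6439 genes found in at least 20% of these wells. Maf encodes a transcription factor, Adgre1 the macrophage antigen F4/80 and Aif1 the protein IBA1. For C3ar1 they were Abt1 (0.576), C1qc (0.565), Adgre1 (0.53), Lgmn (0.527), which encodes the lysosomal protease legumain, and Socs6 (0.513). The chains were correlated with each other at 0.789 (C1qb with C1qc), 0.729 (C1qa with C1qc) and 0.66 (C1qa with C1qb). C5ar1 was found in 12.5% of these wells, and its nearest genes (Arhgap10, Tfb2m, Arap3, Plec, Carkd) were rare as well. With the looser myeloid threshold, added after the values were seen, 316 wells gave Mrc1 (0.435), C3ar1 (0.409), Maf (0.378), Rab3il1 (0.375), Zeb2os (0.37), Dok2 (0.362), Fcrls (0.343) and Aif1 (0.342) for the chains, and Mrc1 (0.412) and F13a1 (0.41) led for C5ar1. Maf and Aif1 were named at both thresholds, but the 316 wells include the 64, so the lists are not independent. These wells share 4 libraries and differ in depth (r of the summed chains with the log2 total was 0.209 and 0.182), cells are not replicates, and the correlations are descriptions.

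The filter on low counts was passed by 11144 of all 23091 genes and by a similar share of the other complement genes. Of 52 other complement genes listed, 47 were in the tables, 22 passed the filter on low counts, 5 were higher and 8 lower in A1/A2 than in EMP libraries (edgeR, adjusted p under 0.05), against 17.3% higher and 15.4% lower among all 11144 genes. Their median log2 fold change was -0.45, and that of all genes tested -0.02. The list was drawn up with earlier results of these data known.

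Of the 5 higher genes, 4 are described here. Cfp, which encodes properdin, a stabiliser of the alternative pathway convertase, averaged 13.7 ± 5.25 CPM in A1/A2 and 2.33 ± 1.26 CPM in EMP libraries (SD, n = 4 each; 2.50 ± 0.38 SE; edgeR, adjusted p = 0.00062). Itgam and Itgb2, the chains of complement receptor 3, rose by 3.10 ± 0.19 and 1.92 ± 0.20 (SE, log2 scale; edgeR, adjusted p = 1.01e-06 and 4.16e-05). Itgam encodes CD11b, for which the cells were stained. Lrp1, a scavenger receptor, rose by 1.39 ± 0.15 (SE; edgeR, adjusted p = 4.82e-05). C5ar2, the other C5a receptor, was at 13.7 ± 4.31 CPM in A1/A2 and 14.9 ± 1.65 CPM in EMP libraries (SD, n = 4 each) and did not pass (-0.15 ± 0.21 SE; edgeR, adjusted p = 0.619). Whether C5ar1 and C5ar2 differ in their change was not tested.

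The 8 lower genes were Scarf1 (-3.12 ± 0.40 SE, edgeR, adjusted p = 0.000168), Cd93 (-1.63 ± 0.37 SE, edgeR, adjusted p = 0.00923), Clu, Cd59a, Colec12, Cfi, C1rl and C9, the last 6 between -0.62 and -0.99. Scarf1 and Cd93 encode cell-surface receptors of endothelium, and Cd93 is also found on some myeloid cells. The endothelial and endoderm lists were also lower in A1/A2 libraries, and their part was not tested. Without endoderm wells, an alternative added after the values were seen, 15 genes of the list passed the filter, 6 were higher and 4 lower. Leaving out each library in turn kept 5 higher genes and gave 4 to 10 lower ones, with 4 when A1/A2 library 1 or 4 was left out.

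**Figure D5:**
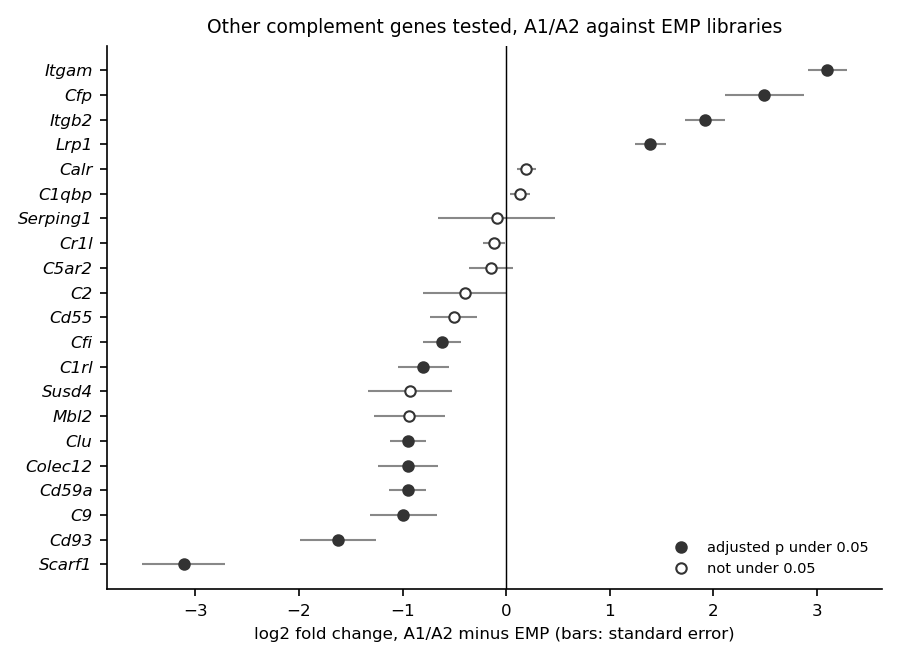
Log2 fold change of 21 of the 22 other complement genes that passed the filter, A1/A2 minus EMP libraries (points, bars are standard errors). Filled points passed edgeR at an adjusted p under 0.05, 4 to the right of 0, from Lrp1 at 1.39 to Itgam at 3.10, and 8 to the left, down to Scarf1 at -3.12.

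Those partners of C1q in the classical pathway that were among the 23091 genes listed were rarely counted. C1ra was counted 8 times in all 568 A1/A2 wells and C1s1 20 times, against 3502 for C1qb. C2 was at 3.61 ± 0.747 CPM (SD, n = 4) and C4a at 4 transcripts in all. The ligand sources of both receptors were low as well, with C3 at 0.391, 2.81, 11.3 and 0.580 CPM in A1/A2 libraries 1 to 4 and 3 transcripts of Hc, which encodes C5, in all 4. C1qbp, named for binding C1q, and Calr, which encodes calreticulin, were at 603 ± 66.0 and 722 ± 52.7 CPM in A1/A2 libraries and at 538 ± 34.6 and 618 ± 49.8 CPM in EMP libraries (SD, n = 4 each), and neither passed (edgeR, adjusted p = 0.293 and 0.115). C1rb, C1s2, C4b, Cfd and Vsig4 were not among the 23091 genes listed under these names, so nothing is known of them here.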

How the data were processed

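Single yolk sac cells were measured with mCEL-Seq2, a 3' end method in which primers carry a barcode for the well and a random identifier for the molecule. Each table that the authors deposited holds estimated counts of molecules, unscaled for depth. After undoing a correction for collisions among 4096 identifiers, 100% of values were whole at a tolerance of 1e-06. The submitters' processing notes name BWA (0.6.2-r126) along with Seurat, while their roles, the genome build and the annotation were not given in the sources used here. A series table of the same estimated counts that the authors deposited holds 165, 175, 160 and 189 wells of A1/A2 libraries 1 to 4, with 0 differing values for the 5 genes.

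Wells of at least 1000 transcripts were kept. Sums were taken over each library, or over each class of at least 3 wells in it, rounded and tested with edgeR 4.0.16 in R 4.3.3 (TMM, filterByExpr, robust quasi-likelihood test, Benjamini-Hochberg at 5%), with library as a block within A1/A2 libraries. Standard errors are the log2 fold change over the square root of F. Classes of wells were set by summed marker transcripts per 1000. CPM are counts per 1e6 of the kept wells of a library. No doublet caller was run, since cells were sorted singly. Counts were tested on simulated data: 77.5% of 2-fold changes were recovered for A1/A2 against EMP (10979 genes). For Ly6c2/Ccr2 wells, 11.1% of 2-fold and 58.5% of 4-fold changes were recovered (1682 genes), and with the added thresholds 0% and 14.9% (6869 genes). For S100a8/S100a9 wells with the added thresholds, 0% and 11.2% were recovered (6493 genes), and for G2/M 57.9% and 100% (1805 genes).

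The 5 genes, the lists and the tests were chosen with earlier results of these data known. Genes were named by rule: the 5 genes, up to 6 complement genes per direction with the smallest p among those called, and those most correlated with the 5 genes (log2 of counts per 10000 plus 1), leaving out predicted, ribosomal and mitochondrial genes. C1rl, C9 and the complement genes named as not called or not tested were named after their values were seen. For 1 called complement gene, counted in the totals, no values are reported here.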

Additional observations from a re-analysis of the deposited data

Results flagged for a closer look

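Groups of 4 libraries were searched for a library apart from the other 3 (by Dixon's gap over range at 95%), which chance gives in about 1 of 20 groups. Of 54 groups of values, 5 held such a library. Some groups share transcripts, so the 54 are not independent and their number is not read against chance. In 2 of them it was A1/A2 library 4, with 28.45 C1qc per 100 C1qb over all kept wells (39.8, 40.7 and 41.3 in libraries 1 to 3) and 28.78 in wells with Csf1r. Both values come largely from the same transcripts and are in effect 1 observation. C1qa was counted at 3.703 per 100 C1qb in wells without Csf1r of A1/A2 library 1 and at 2.588 in wells with Csf1r of EMP library 1, each from 2 transcripts, with 0 in the other 3 libraries of the group. With 0 in 3 libraries, any count in the remaining one is flagged, so nothing is read from these 2 groups. Cd93, which encodes a receptor of endothelial and some myeloid cells, was at 28.36 CPM in A1/A2 library 3 and at 9.78, 12.1 and 11.03 CPM in the others.

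The 200 A1/A2 wells below 1000 transcripts, outside every comparison above, held 48 C1qb transcripts among 116658, or 411.5 CPM (95% Poisson interval 303 to 546). The 113 EMP wells below 1000 transcripts held 10 C1qb transcripts, or 146 CPM (70.0 to 269). C1qb in these A1/A2 wells was not below the 288 CPM of kept wells, C1qc was at 94.3 CPM with 11 transcripts, and C1qa was counted once. The origin of these transcripts was not tested.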

How the results depend on the processing

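The 5 higher complement genes kept direction and call under all alternatives run, and of 152 values for the 11 complement genes named by rule, 145 kept both, 7 (Cfi and Colec12) lost the call and none turned. Titles give both groups the numbers P1 to P4 without saying what a number shares. Deviations of same-numbered libraries correlated at 0.222, 0.391, -0.025 and 0.22, and those of the 12 other pairs at -0.282 to 0.176. With 1 same-numbered pair below 0.1, libraries were not treated as paired, although 6 of 8 correlated best with their own number. A replicate block gave 4736 genes for A1/A2 against EMP (3651 without it) and 16 complement genes (13 without it). For Ly6c2/Ccr2 wells (367 genes), DESeq2 called 92, no filter 162, a myeloid threshold of 1 per 1000 562, the added thresholds 576 and thinning 0 of 86 genes (edgeR; 18 at an unadjusted p under 0.05). With the added thresholds, thinning gave 57 and leaving out a library 332 to 439 genes. For S100a8/S100a9 wells (480 genes, added thresholds), DESeq2 called 276, thinning 57 and leaving out a library 259 to 365. For G2/M (36 genes), no filter gave 81, wells of at least 2000 transcripts 11, no replicate block 7, a myeloid threshold of 1 per 1000 21 and thinning 3. With the added thresholds (27 genes), DESeq2 gave 15, thinning 8 and leaving out a library 30 to 47. C1qb in the G2/M split turned to 0.082 (DESeq2), 0.19 (no filter), 0.36 (myeloid threshold of 1 per 1000), 0.46 (added thresholds) and, leaving out each library, lay between -0.37 and 0.14, above 0 without library 1, 3 or 4. C1qc turned to 0.41 and 0.55 at both lower thresholds, and C3ar1 in Ly6c2/Ccr2 wells (added thresholds) to -0.86 without library 3, up to 1.48 without library 2. Thinned tests hold fewer genes; other causes were not tested. S100a8/S100a9 wells at the original thresholds, a myeloid threshold of 4 per 1000 and leaving out library 1 or 3 for Ly6c2/Ccr2 wells left too few wells. C1qa and C5ar1 are limited by depth, at 249 and 178 A1/A2 transcripts.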

Other observations

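The following genes were picked after their values were seen. Fcna, which encodes ficolin A, a recognition molecule of the lectin pathway made by macrophages, was counted 55 times in A1/A2 wells, at 1.96, 5.06, 1.82 and 7.84 CPM in libraries 1 to 4, and 0 times in all EMP wells. It was left out of the test by the filter on low counts. C3 (44 transcripts in A1/A2 wells) and Itgax, which encodes the integrin CD11c of complement receptor 4 (51 transcripts), were both highest in A1/A2 library 3, at 11.3 and 12.4 CPM, against 0.391 to 2.81 CPM and 0.391 to 2.53 CPM in the others.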
